A study of Drosophila melanogaster with 17 samples.

Results

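The enteroendocrine cells (EEs) of the adult *Drosophila* midgut were compared with the cells labelled as enterocytes, as the 2 differentiated lineages of the epithelium. The comparison used 6 of the 17 libraries of the series, 3 of EEs and 3 labelled EC, chosen by their titles. They are written EE1 to EE3 and EC1 to EC3 here. All 6 came from wild type adults at day 3. Midguts were digested with elastase, cells carrying green fluorescent protein were sorted, and their RNA was amplified before sequencing. No label names the driver of the fluorescent protein in these libraries. The methods of the study name ProsV1-Gal4 for its EE profile and Myo31DF-Gal4 for its enterocyte profile, and no label ties these 6 libraries to them. For the EC libraries, title and cell type give enterocyte and the source name gives enteroblast, and they are referred to as EC-labelled libraries. Nothing in the labels says whether replicates came from separate flies or sorts, so the p-values measure the spread between these libraries only.

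The midgut epithelium is renewed by intestinal stem cells. A daughter with strong Notch signalling becomes an enteroblast and then an enterocyte, a large polyploid cell that secretes digestive enzymes, carries a brush border and absorbs nutrients. A daughter that turns on *pros*, a homeodomain transcription factor, becomes an EE, which cuts peptide hormones out of precursors, stores them in dense-core vesicles and releases them when calcium enters the cell. Class I EEs produce AstC and class II EEs produce Tk, under the control of the transcription factors Ptx1 and Mirr, respectively.

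Expression was given as RPKM, reads normalised to gene length and to the read total of the library, and was multiplied by 1 factor per library so that the median ratio over the 10763 features above 0 in all 6 libraries was equal. All levels below are these scaled RPKM values. The read totals implied by the table ran from about 25900000 to 59300000 per library, and 12592 to 13550 features were above 0. Replicates correlated at r = 0.971 to 0.975 among the EE libraries and 0.915 to 0.959 among the EC-labelled ones across genes, which are not independent replicates. EC3 stood nearest to the EEs, with r = 0.790 to 0.828, where EC1 and EC2 gave 0.739 to 0.787. It was not nearest to the EEs alone. With the 5 wild type progenitor libraries of the series, r was 0.860 to 0.919 for EC3, 0.843 to 0.895 for EC1 and 0.794 to 0.858 for EC2. EC3 also had the largest implied read total, about 59300000. The share of assigned reads from ribosomal protein genes was 14.6 ± 0.604% (SD, n = 3) in EEs and 33.3 ± 6.20% (SD, n = 3) in the EC-labelled libraries. In sorted bulk samples, fewer cells of a type and less RNA per cell cannot be told apart.

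Marker genes of EEs separated the groups, and most marker genes of enterocytes did not. All 11 of 11 EE marker genes were higher in the EE libraries, and their summed level ran from 67113 to 77033 there and from 982 to 2733 in the EC-labelled libraries, so hormone transcripts were present in the latter too. *Amy-p*, the digestive enzyme alpha-amylase (gene FBgn0000079, chromosome arm 2R, 17118636 to 17120303, reverse strand, BDGP6), was 8.12, 6.3 and 13 in EE1, EE2 and EE3 and 69.6, 261 and 46.5 in EC1, EC2 and EC3. It was lower in all 3 EEs (log2 fold change -3.29 ± 0.60 (SE), adjusted p = 0.00303), with EC2 far above the other EC-labelled libraries. It was the only one of the 11 tested enterocyte marker genes called in that direction, and without EC3 there were 2. After removal of 1 library, the call of *Amy-p* (without EC1, EE1 or EE2) was lost, with adjusted p up to 0.0154.

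None of the remaining tested enterocyte marker genes was called lower in EEs, although 3 of the 11 were lower at an unadjusted p below 0.05 in limma. *Amy-d* was uncalled but did not overlap. With all 11 wild type libraries scaled together, it ran from 1.48 to 4.11 in EEs and 5.6 to 26.1 in the EC-labelled libraries. *Myo31DF*, the unconventional myosin whose driver is used for enterocytes, was 22.2, 21.6 and 13.9 in EEs and 30.1, 18.1 and 42.1 in the EC-labelled libraries, and the groups overlapped (log2 fold change -0.57 ± 0.35 (SE), adjusted p = 0.207). *nub*, an enterocyte transcription factor, was under the filter on low values with 0.65, 0.182 and 0.388 in EEs and 1.78, 6.24 and 1.05 in the EC-labelled libraries, without overlap. The trypsins *alphaTry* and *betaTry* overlapped between the groups, with the highest values of both in EC2. The 3 marker genes called in the opposite direction, *Ssk*, *mesh* and *Tsp2A*, build the smooth septate junction and are described with the junction genes.

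Genes of enteroblasts, the precursor state, were called lower in EEs and so higher in the EC-labelled libraries for 5 of 6 tested members, with a median log2 fold change of -2.79. The Notch target *E(spl)m3-HLH* was 19.1, 13.5 and 12.5 in EEs and 163, 120.4 and 100.4 in the EC-labelled libraries, whose mean was 8.5 times the EE mean (adjusted p = 1.33e-04). *Sox21a*, a Sox factor of progenitors, was 0.722, 0.423 and 0.558 against 17.7, 11 and 13.2 (log2 fold change -3.23 ± 0.23 (SE), adjusted p = 4.31e-05). Neither gene overlapped between the groups. *klu*, a zinc finger repressor of enteroblasts, had a log2 fold change of -2.63, and *Su(H)*, the nuclear effector of Notch, was uncalled (log2 fold change -0.17 ± 0.19 (SE), adjusted p = 0.471). Of 4 stem cell genes, *mira* (-2.16) and *spdo* (-1.33) were called lower in EEs. Leaving out 1 library removed the call of *spdo* (in each fit but that without EC2), with adjusted p up to 0.0384.

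The 5 wild type progenitor libraries of the series gave a further scale for the label, after scaling all 11 wild type libraries together. *E(spl)m3-HLH* ran from 61.9 to 468 in progenitors, 109.6 to 179 in the EC-labelled libraries and 13.7 to 20.6 in EEs. *Ssk* ran from 83.7 to 293, 125 to 247 and 2063 to 2435 in the same order, so that the EC-labelled range lay within that of progenitors for both genes. *Amy-p* set the EC-labelled libraries apart from progenitors, with 0.37 to 4.19 in progenitors and 50.7 to 288 in the EC-labelled libraries. Across 7847 features, r was 0.794 to 0.919 between EC-labelled and progenitor libraries and 0.737 to 0.827 between EC-labelled and EE libraries. The groups are therefore named by their labels, and differences between them are not described as differences between EEs and pure enterocytes.

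**Figure D1:**
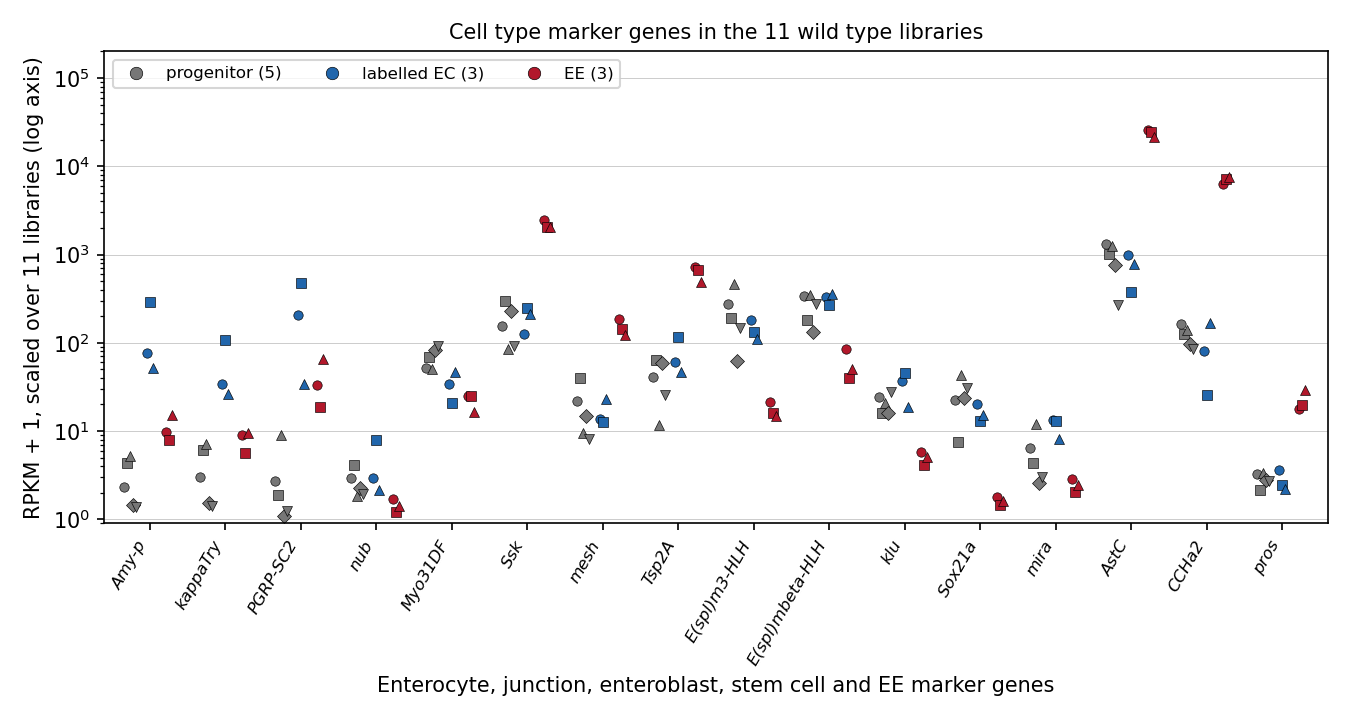
Scaled RPKM plus 1 (log axis) of 16 marker genes in 5 progenitor (grey), 3 EC-labelled (blue) and 3 EE (red) libraries, scaled over all 11, with 1 point per library and a shape per replicate. *Amy-p* is highest in the EC-labelled libraries, *Ssk*, *mesh*, *Tsp2A* and the hormones are highest in EEs, and the Notch targets lie at similar levels in progenitor and EC-labelled libraries.

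Few markers of other tissues passed the filter. Of 16 visceral muscle genes, 4 passed the filter on low values and *vn*, which also encodes an EGF receptor ligand, was called lower in EEs, a call lost in each fit with 1 library left out but that without EC3, where 2 were lower. The sarcomere gene *Mhc* stayed at or below 0.232 in every library and *Mlc2* reached 3.23, 3.79 and 1.07 in the EC-labelled libraries. The summed level of the muscle list was 46.5 to 63.6 in EEs and 68.6 to 182 in the EC-labelled libraries, most of it from *Tm1*. Of 10 haemocyte genes 3 were tested and none was called (1 higher and 0 lower at an unadjusted p below 0.05, and 1 called higher without EC3), and their summed level was 31.4 to 39.1 in EEs and 24 to 38.4 in the EC-labelled libraries, with *NimC1* at 0.512, 3.02 and 0.717 in EEs and highest in EE2, and *He* at 0 in all 3 EC-labelled libraries. Fat body genes summed to 11.3 to 18.5 and 1.14 to 2.69, nearly all from *apolpp*, with *Fbp1* at 0 in all 3 EEs, and tracheal genes to 25.2 to 34.1 and 71.9 to 246, of which the EGF receptor inhibitor *sty* made up most. The part of these cells in the results was not tested.

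Of 7847 features tested with limma, 2318 (29.5%) passed both thresholds, an adjusted p under 0.01 and a log2 fold change of more than 0.5 in size. EEs were higher for 1459 (18.6%) and lower for 859 (10.9%). These shares are the background for each count of calls below. Fold changes are on the log2(scaled RPKM + 1) scale, EE minus EC-labelled, which understates the change of low genes. Their median over all tested features was 0.07. The groups did not overlap for 58.9% of the features. Without the scaling, the median was 0.45 and the calls split into 2080 higher and 488 lower, so directions near the median depend on the scaling. With 1 library left out, 1236 (without EE2) to 3020 (without EC3) features were called. Where leaving out 1 library moved a count of calls below by more than 1.5 times, brackets give the count without that library, with libraries joined by "and" left out singly. Where no member of a list was called in 1 direction, the number below an unadjusted p of 0.05 follows as unadjusted.

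The largest rise in EEs was that of *CG34458* on arm 2R, with 358, 541 and 245 in EEs and 0.73, 0 and 1.52 in the EC-labelled libraries (log2 fold change 7.80 ± 0.41 (SE), adjusted p = 2.43e-05). *CG14989* on arm 3L followed with 2884, 3209.7 and 3969.9 against 18.5, 5.87 and 55.3 (log2 fold change 7.40 ± 0.67 (SE), adjusted p = 1.10e-04). The lowest EE library was 161 times the highest EC-labelled one for *CG34458* and 52.1 times for *CG14989*. *CG34386* (6.02) and *CG12934* (5.75) were also among the 10 largest rises, as was *CG44142* (5.84), and none of the 5 has a name beyond its annotation number. The other 5 of the 10 were *CCHa2*, *AstA*, *Npc2b*, *7B2* and *Fer1*. The call of *CG44142* (in each fit but those without EC3 and EE1) was lost in fits with 1 library fewer (adjusted p up to 0.0304).

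The largest falls included unannotated and non-coding features. The feature FBgn0085364, which has no entry in the annotation used, was 2726, 118 and 264 in EEs and 35658, 83481 and 10260.0 in the EC-labelled libraries (log2 fold change -6.15 ± 1.17 (SE), adjusted p = 0.00377), with the highest EE value 23.1 times the lowest. *CG44476* on arm 2L was 0.752, 0.567 and 0.465 against 44, 135 and 31.8 (log2 fold change -5.20 ± 0.49 (SE), adjusted p = 1.30e-04). The ribosomal RNA pseudogene *5.8SrRNA-Psi:CR45863* (-5.08) and the ribosomal RNA *2SrRNA:CR45864* (-4.21) stood among the 10 largest falls. Both varied widely between libraries of 1 group. With all 11 wild type libraries scaled together, the pseudogene ran from 3.24 to 1384 among the 5 progenitor libraries. *2SrRNA:CR45864* ran from 1.07 to 26.4 among progenitors and 6.01 to 87 among the EC-labelled libraries. *CG8997* (-4.50), *CG7916* (-4.47), *CG6912* (-4.50), *CG7069* (-3.99) and *CG14715* (-3.97) were also among the 10. The last of the 10 was *kdn*, the citrate synthase of the mitochondrion. In fits that left out 1 library, FBgn0085364 (in each fit but those without EC3 and EE1) and *2SrRNA:CR45864* (in each fit but those without EC1 and EC3) lost their calls (adjusted p up to 0.0195). The reads of *CG6912* and *CG14715* may include those of other genes with shared exonic bases.

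Peptide hormones had the largest median difference of the functional groups. Of 13 tested hormone genes, 12 were higher in EEs and none lower (1 unadjusted), with a median log2 fold change of 4.37 against 0.07 over all features. *AstC* (gene FBgn0032336, chromosome arm 2L, 11076165 to 11081399, reverse strand), the class I hormone allatostatin C, was 24130.1, 22033 and 19673 in EEs and 899, 339 and 716 in the EC-labelled libraries. The EE mean was 33.7 times the EC-labelled mean (log2 fold change 5.18 ± 0.39 (SE), adjusted p = 5.00e-05). *Tk*, the class II hormone tachykinin, was 5632, 6254 and 6951 against 258, 121 and 230.0 (log2 fold change 5.01 ± 0.34 (SE), adjusted p = 3.88e-05). The lowest EE library was 21.9 times the highest EC-labelled library for *AstC* and 21.8 times for *Tk*.

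*NPF*, neuropeptide F, and *AstC* had the highest levels of the hormones, with *NPF* at 20496, 33767 and 28267 in EEs and 1188, 354 and 384 in the EC-labelled libraries (log2 fold change 5.63 ± 0.49 (SE), adjusted p = 9.79e-05). *CCHa2* (gene FBgn0038147, chromosome arm 3R, 13389059 to 13395197, reverse strand), a nutrient-responsive peptide, was 5860.1, 6434 and 6973 against 71.9, 22.1 and 151 (log2 fold change 6.66 ± 0.61 (SE), adjusted p = 1.19e-04). *AstA*, allatostatin A, was 7203, 5370.0 and 3313 against 73.4, 20.4 and 98.1 (log2 fold change 6.55 ± 0.58 (SE), adjusted p = 1.04e-04). EE1 was the lowest EE library for *NPF* and *CCHa2* and the highest for *AstA*. Within the EC-labelled group the order was not shared either: *NPF* was highest in EC1 and *CCHa2* in EC3, while EC2 was lowest for all 3 hormones.

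The other hormones with high levels were *Orcokinin*, at 6326, 9828 and 12122 in EEs and 1371, 189 and 1053 in the EC-labelled libraries (log2 fold change 3.81 ± 0.71 (SE), adjusted p = 0.00331), and *CCHa1* (4.37). *Orcokinin* had the smallest gap of the called hormones, with the lowest EE library 4.61 times the highest EC-labelled one. *Mip*, myoinhibitory peptide (5.07), and *Dh31*, a diuretic hormone related to calcitonin (3.63), reached 853 and 526 in EEs. *Gpb5*, a glycoprotein hormone subunit (4.26), *CCAP* (4.12) and *sNPF* (2.58) reached no more than 82.2, 29.2 and 8.64 in EEs. *ITP*, the ion transport peptide, was the exception with 10.7, 7.74 and 11.9 in EEs and 20.7, 19.8 and 18.9 in the EC-labelled libraries and was not called (log2 fold change -0.93 ± 0.23 (SE), adjusted p = 0.0129), although the groups did not overlap. The study describes *ITP* as not restricted to EEs. *CNMa* was under the filter. The call lost with 1 library left out was that of *Orcokinin* (without EE2 or EE3), with adjusted p up to 0.0156. *CCAP* shares exonic bases with another gene, so its values are uncertain.

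**Figure D2:**
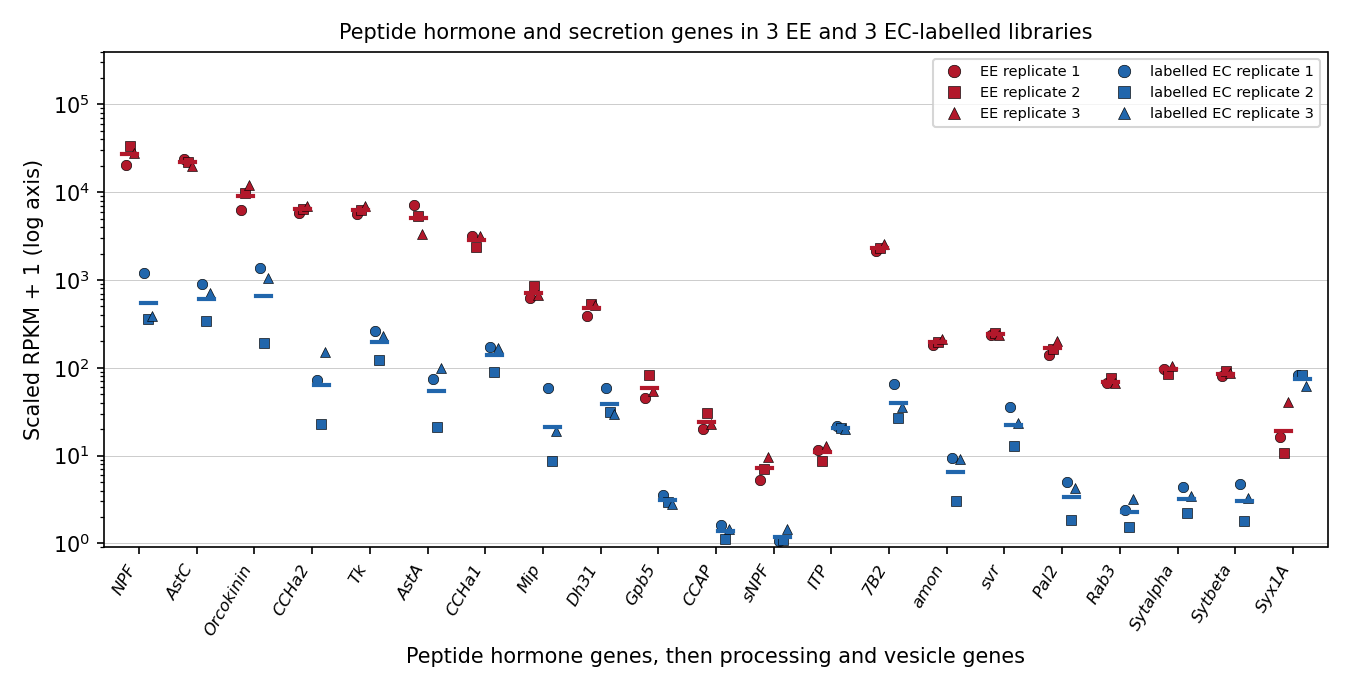
Scaled RPKM plus 1 (log axis) of 13 hormone genes and 8 processing and vesicle genes, with 1 point per library (red, EE; blue, EC-labelled) and lines at the group means of log2 values. EEs are above the EC-labelled libraries for each gene except *ITP* and *Syx1A*.

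The enzymes that cut and finish hormone precursors followed the hormones. Of 7 tested, 5 were higher in EEs and none lower (0 unadjusted), with a median of 3.44. *amon*, the prohormone convertase 2 of the fly, was 178, 197 and 209 in EEs and 8.45, 2.02 and 8.26 in the EC-labelled libraries (log2 fold change 4.93 ± 0.44 (SE), adjusted p = 1.07e-04). Its chaperone *7B2* was 2109, 2341 and 2601 against 64.2, 25.6 and 35.2 (log2 fold change 5.88 ± 0.36 (SE), adjusted p = 3.19e-05). The amidating lyase *Pal2* (5.62) and the carboxypeptidase *svr* (3.44) rose too. *Fur1*, a furin (2.14), was the smallest of the 5 rises, and *Fur2* (-0.16, adjusted p = 0.475) and *QC* (1.05, adjusted p = 0.13) were not called. Without single libraries, the call of *Fur1* (without EC1 or EE3) did not hold (adjusted p up to 0.0119). Exonic bases of *Pal2* and *svr* are shared with other genes.

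Most genes for vesicle docking and fusion were higher in EEs, with 22 of 29 tested higher, 1 lower (0 without EC1, EC2, EC3, EE1 and EE2) and a median of 1.81. *Rab3*, a vesicle GTPase, was 65.4, 75 and 65.9 in EEs and 1.38, 0.532 and 2.19 in the EC-labelled libraries (log2 fold change 4.94 ± 0.30 (SE), adjusted p = 3.19e-05). *Sytalpha* (4.89) and *Sytbeta* (4.82), synaptotagmins linked to peptide release, rose more than *Syt1*, the synaptotagmin of synaptic vesicles (2.82), though the difference between these genes was not tested. *IA-2*, a membrane protein of dense-core vesicles, was 1271, 1248 and 1574 against 125, 44.4 and 41.4 (log2 fold change 4.44 ± 0.43 (SE), adjusted p = 1.58e-04). The active zone genes *brp* (2.04) and *Rim* (2.70) were called at levels of at most 7.62 and 17 in EEs. The plasma membrane syntaxin *Syx1A* went the other way, at 15.3, 9.72 and 39.5 against 81.7, 81.1 and 60.3 (log2 fold change -1.96 ± 0.46 (SE), adjusted p = 0.00986), with EE3 nearest to the EC-labelled libraries. After removal of 1 library, the call of *Syx1A* (in each fit but that without EE3) was lost, with adjusted p up to 0.0398. Overlap with exons of other genes makes the values of *Sytalpha* and *Syx1A* uncertain.

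Many genes of membrane excitability were higher in EEs. Of 22 tested genes of voltage-gated and leak channels, 12 were higher and 1 lower (0 without EE2 and EE3 and 2 without EC3) in EEs, with a median of 1.53. Each family of voltage-gated calcium channel pore was among the rises. *cac*, the N- and P-type channel that triggers fast release at synapses, was 15.5, 18.6 and 24 in EEs and 2.45, 2.76 and 0.846 in the EC-labelled libraries (log2 fold change 2.80 ± 0.32 (SE), adjusted p = 3.57e-04). The L-type *Ca-alpha1D* (2.93), the T-type *Ca-alpha1T* (2.27) and the auxiliary subunit *stj* (3.35) were also higher. *sand*, a potassium leak channel (3.42), *Elk* (2.13) and *slo* (2.11), a calcium-activated potassium channel, rose as well. The sodium channel homologue *NaCP60E* was lower (log2 fold change -1.53 ± 0.26 (SE), adjusted p = 0.00204). Leaving out 1 library removed the call of *NaCP60E* (without EE2 or EE3), with adjusted p up to 0.0146. The reads of *Ca-alpha1D*, *sand* and *NaCP60E* may include those of other genes with shared exonic bases.

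Most receptors for hormones and transmitters that passed the filter were higher in EEs. The filter could be met by the 3 EE libraries alone, so it partly sets the share of rises among the genes that passed. Of 40 peptide receptor genes, 15 passed the filter, and 11 were higher and 1 lower (0 without EC1, EC2, EC3, EE2 and EE3) (median 1.27). *NPFR*, the receptor of NPF, was 24.6, 23.9 and 27.5 in EEs and 1.71, 0.431 and 2.04 in the EC-labelled libraries (log2 fold change 3.53 ± 0.31 (SE), adjusted p = 9.89e-05). *AstA-R2* (3.58), *CCHa1-R* (3.00), *TrissinR* (2.77) and *ETHR* (2.51) rose with it. *NPFR* and *AstA-R2* reached 27.5 and 20.3 in EEs, where *NPF* and *AstA* reached 33767 and 7203. *moody*, a receptor known from glia of the blood-brain barrier, was lower in EEs (log2 fold change -1.47 ± 0.34 (SE), adjusted p = 0.00915). Among 11 tested amine and transmitter receptor genes, 8 were higher and none lower (1 unadjusted, 1 without EC3), led by *mAChR-C*, a muscarinic receptor (3.75), and *DopEcR*, a receptor for dopamine and ecdysone (3.41). The call of *moody* (in each fit but that without EE1) was lost in fits with 1 library fewer (adjusted p up to 0.0368).

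Some genes that sense food and irritants were called higher in EEs. Of 126 gustatory and ionotropic receptor genes in the table, 10 passed the filter and 7 were higher in EEs and 1 lower (0 without EC1, EE1, EE2 and EE3). Over all features, 18.6% were higher and 10.9% lower. Of the 10 genes, 6 share exonic bases with other genes. Among features sharing none, 2 of the receptor genes were higher and 0 lower. *Gr43a*, the fructose receptor, was 2.6, 2.5 and 2.34 in EEs and 0.328, 0.101 and 0.409 in the EC-labelled libraries (log2 fold change 1.45 ± 0.16 (SE), adjusted p = 2.51e-04), and *Ir85a* was 23.2, 32.5 and 21.5 against 1.4, 0.36 and 0.583 (log2 fold change 3.93 ± 0.29 (SE), adjusted p = 4.55e-05). *Gr28b* (1.90) and *Gr89a* (1.93) were also called. The 3 EE libraries alone could meet the filter, as they did for *Gr43a*, so it partly sets the share of rises here. *TrpA1*, a cation channel opened by heat and reactive chemicals and the only one called of 3 tested TRP and mechanosensory channels, was 72.6, 104 and 84 against 2.23, 0.897 and 2 (log2 fold change 5.04 ± 0.28 (SE), adjusted p = 3.07e-05). Of 29 genes of the *ppk* sodium channel family, only 2 passed the filter, which the EE libraries alone could meet. These 2, *ppk17* (5.22) and *ppk13* (3.38), were both higher. *Gr43a*, *Ir85a* and *ppk17* share exonic bases with other genes, so their values are uncertain.

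Signalling through cyclic AMP and calcium showed no common direction, with 9 of 33 tested members higher (5 without EE1, EE2 and EE3), 3 lower (0 without EE2, 1 without EC1, EE1 and EE3 and 10 without EC3) and a median of 0.01. Over all features, 18.6% were higher and 10.9% lower. The adenylyl cyclases were split. *Ac78C* was 29.2, 30.8 and 22 in EEs and 0.25, 0.157 and 0.954 in the EC-labelled libraries (log2 fold change 4.31 ± 0.27 (SE), adjusted p = 3.19e-05) and *ACXD* rose (2.63), whereas *rut* (-1.22) and *Ac76E* (-1.17) fell. The G protein subunits were split as well, with *Galphao* higher (1.76) and *Galphai* lower (-1.81). *Epac*, an exchange factor activated by cyclic AMP, rose (2.49). In fits that left out 1 library, *rut* (without EE1 or EE2), *Ac76E* (in each fit but that without EC3), *Galphao* (without EE1, EE2 or EE3) and *Galphai* (without EC1, EE2 or EE3) lost their calls (adjusted p up to 0.0311). Exonic bases of *rut* are shared with another gene.

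Transcription factors of EE subtypes were mostly higher in EEs, 9 of 15 tested, but 3 were lower (1 without EC1, EC2, EE1, EE2 and EE3). *pros* was 15.6, 16.8 and 25.9 in EEs and 2.35, 1.32 and 1.1 in the EC-labelled libraries (log2 fold change 2.98 ± 0.28 (SE), adjusted p = 1.49e-04). *Fer1*, a bHLH factor, was 82.6, 90.3 and 65.6 against 0.574, 0.318 and 0.922 (log2 fold change 5.65 ± 0.25 (SE), adjusted p = 2.39e-05). *tap*, a neurogenin homologue (3.94), *Poxn* (3.84) and *hbn* (3.07) followed. The class II factor *mirr* was 11.9, 16.7 and 18.3 against 1.12, 2.87 and 0.622 (log2 fold change 2.79 ± 0.35 (SE), adjusted p = 5.05e-04) and the class I factor *Ptx1* was 31.3, 34.2 and 26.3 against 13.4, 9.31 and 6.86 (log2 fold change 1.58 ± 0.28 (SE), adjusted p = 0.0027), so that *Ptx1* was at 6.86 or more in each EC-labelled library. *mamo* (-2.77), *NK7.1* (-2.05) and *exex* (-1.55), which also act in EE subtypes, were lower in EEs than in the EC-labelled libraries. The study describes these 3 factors as not restricted to EEs, with expression in progenitors, enterocytes or both. The calls lost with 1 library left out were those of *Ptx1* (without EE1 or EE2) and *mamo* and *exex* (in each fit but that without EC3), with adjusted p up to 0.0279. Overlap with exons of other genes makes the values of *pros* and *NK7.1* uncertain.

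Transcription factors of the midgut and of enterocytes gave 3 (1 without EE1 and EE2 and 6 without EC3) rises and 5 falls (3 without EC1, EC2, EE1, EE2 and EE3 and 9 without EC3) among 26 tested. *Sox100B*, a Sox factor of enteroblasts, was 9.49, 6.84 and 6.05 in EEs and 66.6, 67.8 and 42.8 in the EC-labelled libraries (log2 fold change -2.82 ± 0.28 (SE), adjusted p = 1.74e-04). *Hnf4*, a nuclear receptor for fatty acid use, was 2.27, 2.08 and 3.27 against 14, 13.5 and 9.09 (log2 fold change -1.89 ± 0.25 (SE), adjusted p = 6.85e-04). *Myc*, the growth regulator, was 12.8, 6.17 and 15.3 against 219, 135 and 32.5 (log2 fold change -3.09 ± 0.66 (SE), adjusted p = 0.00654), with EC1 6.74 times EC3. The sugar sensor *Mondo* (1.29) and the clock factor *vri* (1.41) rose. Among nuclear receptors 2 (1 without EC1, EC2, EE1, EE2 and EE3) of 10 were higher and 3 lower (1 without EC1, EC2, EE1 and EE2 and 5 without EC3), against 18.6% and 10.9% over all features. *Hr96*, a sensor of xenobiotics and lipids, was higher in EEs (log2 fold change 2.21 ± 0.28 (SE), adjusted p = 5.48e-04) and *Eip75B* (-2.50) and *EcR* (-1.13), of the ecdysone response, were lower. Without single libraries, the calls of *Myc* and *EcR* (in each fit but that without EC3) and *Mondo* and *Eip75B* (in each fit but those without EC3 and EE3) did not hold (adjusted p up to 0.029). The reads of *Hnf4* and *Myc* may include those of other genes with shared exonic bases.

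Pan-neuronal genes were called at shares near those over all features. Of 14 tested, 3 (21.4%) were higher against 18.6% over all features, the vesicle genes *nSyb* and *Syn* and the active zone gene *brp*. Another 2 (14.3%) were lower (1 without EC1, EC2, EE1, EE2 and EE3) against 10.9%, both adhesion molecules (*Fas2*, -2.18, and *Nrg*, -2.45). *nSyb*, the synaptobrevin of neurons, was 57.1, 58.9 and 57.6 in EEs and 3.32, 1.15 and 1.9 in the EC-labelled libraries (log2 fold change 4.30 ± 0.29 (SE), adjusted p = 3.56e-05). Of 54 *dpr*, *DIP*, *beat* and *side* genes, which encode immunoglobulin-domain proteins for recognition between neurons, 10 passed the filter and 7 were higher. As for the receptors, the 3 EE libraries alone could meet the filter. *dpr19* (2.55), *side-VII* (2.45), *dpr5* (2.40) and *dpr1* (2.29) led them. *DIP-alpha*, whose product binds Dpr proteins, was at 0.638, 0.458 and 0.686 in EEs and 18.3, 19 and 11.5 in the EC-labelled libraries (log2 fold change -3.41 ± 0.24 (SE), adjusted p = 4.33e-05), the single fall. After removal of 1 library, the call of *Nrg* (in each fit but that without EC3) was lost, with adjusted p up to 0.0169. *DIP-alpha* shares exonic bases with another gene, so its values are uncertain.

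**Figure D3:**
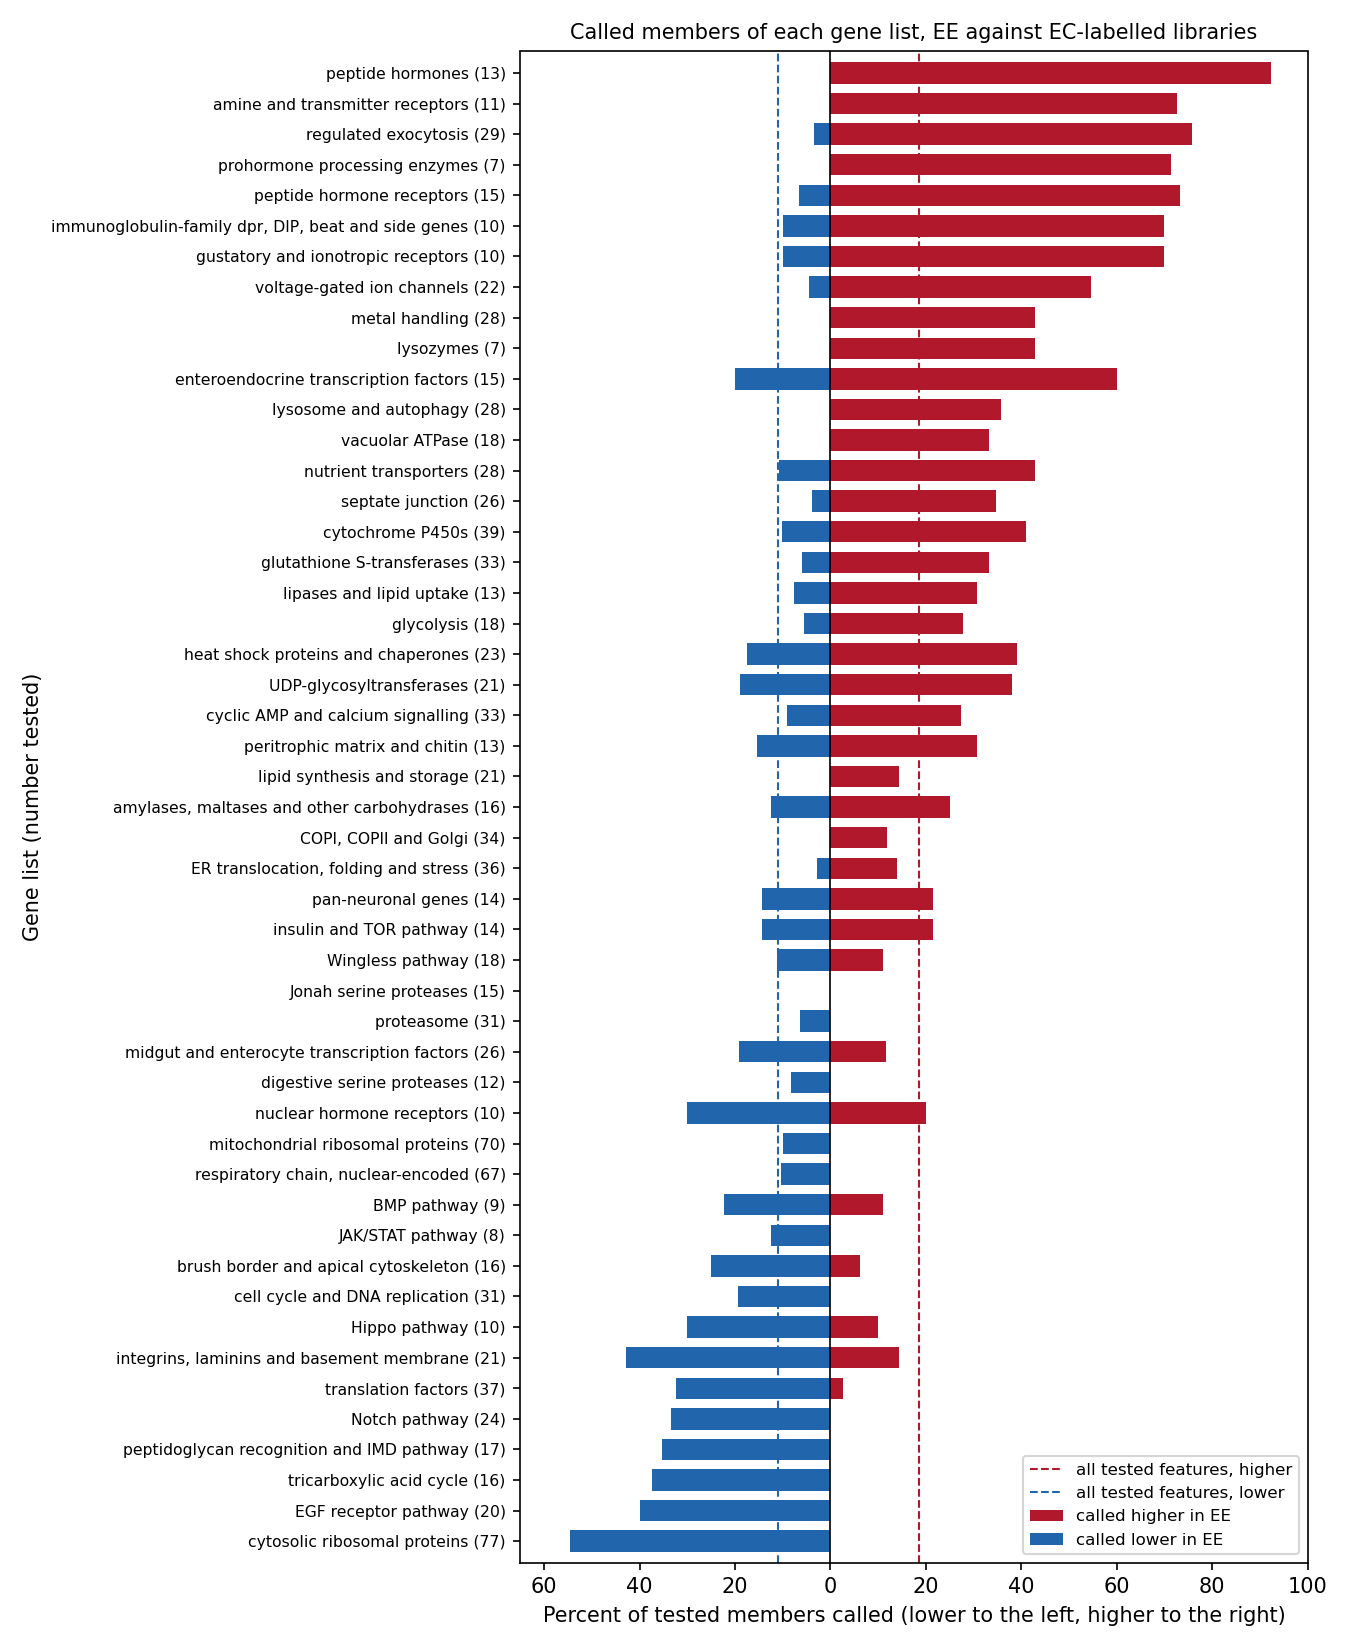
Percent of the tested members of each gene list with 7 or more tested (number in brackets) called higher (red, to the right) or lower (blue, to the left) in EEs. Dashed lines mark the shares over all tested features, 18.6% higher and 10.9% lower. Hormone, release and receptor lists lie at the top and ribosomal proteins and the EGF receptor pathway at the bottom.

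Few digestive protease genes were called, although 11 of 12 tested trypsin-type ones had a negative fold change, with a median of -1.17. Among 15 tested Jonah genes, 8 were negative and 7 positive, with a median of -0.99. None of 12 tested trypsin-type protease genes was higher in EEs (0 unadjusted) and 1 (0 without EC1, EE1, EE2 and EE3 and 3 without EC3) was lower, *kappaTry*, with 7.47, 4.13 and 7.7 in EEs and 30.3, 97.3 and 23.3 in the EC-labelled libraries (log2 fold change -2.54 ± 0.51 (SE), adjusted p = 0.00505). *alphaTry* was 224, 129.8 and 494 against 315, 1734 and 685, and EE3 exceeded EC1 (log2 fold change -1.56 ± 0.68 (SE), adjusted p = 0.0918). None of 15 tested Jonah protease genes was called by limma in either direction (1 higher and 4 lower unadjusted, and lower calls numbered 2 without EC3 and EE3), and *Jon65Aiv* was 188, 53.5 and 395 against 178, 1677 and 679 (log2 fold change -1.88 ± 0.92 (SE), adjusted p = 0.126). The EE values of this gene lay inside or below the range of the EC-labelled ones. The libraries kept 1 order within each group, with EE3 and EC2 the highest and EE2 and EC1 the lowest of their groups for *alphaTry*, *betaTry* and *Jon65Aiv*. The trypsin and Jonah families hold near-identical copies among which reads could be divided. Leaving out 1 library removed the call of *kappaTry* (in each fit but those without EC2 and EC3), with adjusted p up to 0.0241.

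Enzymes that split carbohydrates divided by gene. *Mal-A2* and *Mal-A3*, maltases, were higher in EEs. *Mal-A2* was 308, 215 and 231 in EEs and 7.1, 10.3 and 10.5 in the EC-labelled libraries (log2 fold change 4.62 ± 0.26 (SE), adjusted p = 3.07e-05), and *Mal-A3* was 259, 258 and 210.1 against 6.5, 18.7 and 3.6 (log2 fold change 4.79 ± 0.49 (SE), adjusted p = 1.98e-04). *Amyrel*, an amylase relative, rose as well (2.90). *Mal-A5* was at 0.481, 0.417 and 0.396 against 5.69, 4.54 and 2.7 and so lower, like *Amy-p* (log2 fold change -1.85 ± 0.23 (SE), adjusted p = 5.46e-04). In all, 4 (25%) of 16 tested carbohydrase genes were higher and 2 (12.5%) lower (1 without EC1, EE1 and EE2 and 5 without EC3). Over all features, the shares were 18.6% and 10.9%. Exonic bases of *Amyrel* are shared with another gene.

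Lipid genes were led by *Npc2b*, of the Niemann-Pick C2 family of sterol-binding proteins, with 3471, 3969 and 1842 in EEs and 49.8, 23.8 and 61.7 in the EC-labelled libraries (log2 fold change 6.10 ± 0.44 (SE), adjusted p = 4.52e-05). Its relative *Npc2a* was 243, 215 and 205 against 510.2, 709 and 590.3 and so lower (log2 fold change -1.44 ± 0.25 (SE), adjusted p = 0.00254). The triglyceride lipase *bmm* (1.33) and the lipoprotein *apolpp* (3.06), best known from the fat body, were higher. In lipid synthesis and storage, 3 (1 without EC1, EE1, EE2 and EE3) of 21 tested genes were higher and none lower (1 unadjusted, 2 without EC3), with a share of rises below the 18.6% of all features, among them *bgm*, an acyl-CoA synthetase (2.86), and *Lpin* (1.45). Among lipases and lipid uptake genes 4 of 13 were higher (2 without EE2 and EE3). The calls of *Npc2a* (without EE1, EE2 or EE3), *bmm* (without EE2 or EE3) and *Lpin* (in each fit but those without EC2 and EC3) were lost in fits with 1 library fewer (adjusted p up to 0.0214). Overlap with exons of other genes makes the values of *apolpp* and *Lpin* uncertain.

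Transporter genes were called in both directions, against 18.6% higher and 10.9% lower over all features. Of 28 tested nutrient transporter genes, 12 were higher (5 without EE2 and 7 without EC1, EE1 and EE3) and 3 lower (1 without EC1, EC2, EE1, EE2 and EE3). The sugar transporter *sut2* was 88.2, 77.7 and 85.5 in EEs and 5.31, 7.37 and 5.04 in the EC-labelled libraries (log2 fold change 3.63 ± 0.23 (SE), adjusted p = 3.23e-05). *Picot*, of the phosphate cotransporter family (2.69), and *tadr*, of the amino acid transporter family (2.88), rose too. *path*, an amino acid transporter tied to growth, was 38.3, 36.7 and 29.7 against 212, 204 and 153 and so lower (log2 fold change -2.40 ± 0.25 (SE), adjusted p = 2.17e-04), as was the trehalose transporter *Tret1-1* (-0.89). Genes for handling metals gave 12 higher (7 without EC1) and none lower (0 unadjusted) of 28 tested. Zinc transporters made up most of the rises, with *Zip42C.1* at 21.5, 17.2 and 8.73 against 0.129, 1.07 and 0.0711 (log2 fold change 3.54 ± 0.38 (SE), adjusted p = 2.54e-04), *ZnT63C* (2.95), *ZnT77C* (2.51) and *Zip89B* (2.39). The copper importer *Ctr1B* (1.36) was higher as well. In fits that left out 1 library, *Tret1-1* (in each fit but that without EC3) and *Ctr1B* (without EE1 or EE3) lost their calls (adjusted p up to 0.0557). The reads of *Ctr1B* may include those of another gene with shared exonic bases.

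Detoxification genes were called in both directions, against 18.6% higher and 10.9% lower over all features. Of 39 tested cytochrome P450 genes, 16 were higher and 4 lower (2 without EE2). *Cyp9h1* was 156, 140.3 and 195 in EEs and 3.43, 4.34 and 5.59 in the EC-labelled libraries (log2 fold change 4.92 ± 0.26 (SE), adjusted p = 2.39e-05), followed by *Cyp28d1* (4.26), *Cyp4p1* (4.24) and *Cyp28a5* (4.15). *Cyp6w1* was 0.721, 0.86 and 0.902 against 26.4, 31.6 and 8.28, the largest fall in the family (log2 fold change -3.47 ± 0.44 (SE), adjusted p = 5.79e-04). Of 33 glutathione S-transferase genes, 11 were higher (4 without EE2 and EE3 and 6 without EC1 and EE1) and 2 lower (1 without EE2 and EE3 and 4 without EC3). *GstZ2* rose most (4.62), and *GstE2* fell from 176, 130.2 and 164 in the EC-labelled libraries to 20.7, 21.9 and 15.5 in EEs (log2 fold change -2.96 ± 0.25 (SE), adjusted p = 8.58e-05). Of 21 UDP-glycosyltransferase genes, 8 were higher (4 without EC1 and 5 without EE3), with *Ugt37D1* first (3.70), and 4 lower (2 without EE2 and EE3), with *Ugt302K1* first (-2.50). Odorant binding and takeout proteins, secreted carriers of small lipophilic molecules, gave 2 higher (1 without EE1 and EE3) of 5. Many of these genes lie in clusters of similar copies. *Cyp28d1* shares exonic bases with another gene, so its values are uncertain.

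**Figure D4:**
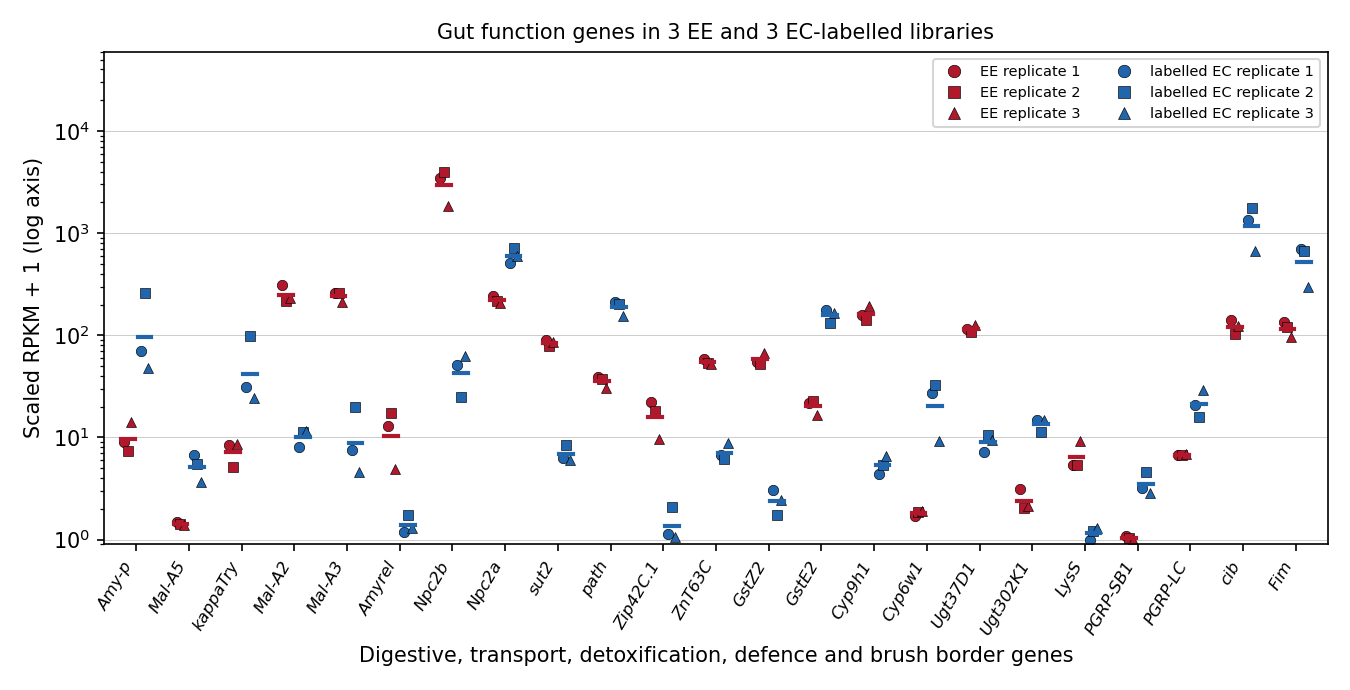
Scaled RPKM plus 1 (log axis) of 23 genes of digestion, transport, detoxification, defence and the brush border, with 1 point per library (red, EE; blue, EC-labelled) and lines at the group means of log2 values. Pairs from 1 family lie on opposite sides, such as *Mal-A2* and *Mal-A5*, *Npc2b* and *Npc2a*, and *GstZ2* and *GstE2*.

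Some genes that recognise bacteria were lower in EEs. Of 17 tested genes of peptidoglycan recognition and the IMD pathway, 6 were lower (2 without EE2 and EE3 and 3 without EE1) and none higher (3 unadjusted, 3 without EC3). *PGRP-LC*, the transmembrane receptor of the pathway, was 5.8, 5.69 and 5.83 in EEs and 19.9, 14.9 and 28.1 in the EC-labelled libraries (log2 fold change -1.65 ± 0.27 (SE), adjusted p = 0.00174). The amidase *PGRP-SB1* (-1.74), the catalase *Irc* (-1.62) and *Rel*, the NF-kappaB factor of the pathway (-1.64), were lower too. *PGRP-SC2*, an amidase of the gut, was 30, 15.9 and 59 against 187, 427 and 30, with EC3 inside the EE range, and was uncalled (log2 fold change -2.10 ± 0.90 (SE), adjusted p = 0.0889). None of the 4 tested antimicrobial peptide genes was called by limma (1 higher and 2 lower unadjusted, and lower calls numbered 1 without EC2, EC3 and EE1), and *DptA*, a diptericin, was 0.08, 1.27 and 0.0906 in EEs and 0.168, 20.2 and 0.074 in the EC-labelled libraries, high in EC2 alone. Among 7 tested lysozyme genes, 3 were higher (1 without EC1 and EE3) in EEs, *LysD* (2.44), *LysE* (1.82) and *LysS* at 4.43, 4.4 and 8.22 against 0, 0.208 and 0.298 (log2 fold change 2.48 ± 0.25 (SE), adjusted p = 1.80e-04), and near-identical copies make their reads uncertain. The calls lost with 1 library left out were those of *PGRP-LC* and *Irc* (without EE1, EE2 or EE3), *Rel* (in each fit but that without EC2), *LysD* (in each fit but those without EC2 and EC3) and *LysE* (in each fit but those without EC2 and EE2), with adjusted p up to 0.0455. Exonic bases of *LysD* are shared with another gene.

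Cell architecture also differed. Of 16 tested genes of the brush border and apical cytoskeleton, 4 were lower in EEs (7 without EC3) and 1 (2 without EC3) was higher. *cib*, an actin-binding protein, was 139, 101 and 123 in EEs and 1357, 1759 and 661 in the EC-labelled libraries (log2 fold change -3.27 ± 0.39 (SE), adjusted p = 4.09e-04). The actin *Act5C* was 837, 631 and 578 against 2879, 3069 and 2414 (log2 fold change -2.04 ± 0.27 (SE), adjusted p = 7.17e-04), and the bundling protein *Fim* (-2.15) and *Moe*, which ties actin to the membrane (-2.53), fell with it. *sn*, fascin, rose (1.99). Of 31 genes of the peritrophic matrix and chitin, 13 passed the filter, and 4 were higher and 2 lower (1 without EC1, EC2, EE2 and EE3). Over all features, 18.6% were higher and 10.9% lower. The 3 EE libraries alone could meet the filter, so it partly sets the share of rises in this list. The mucin *Mur29B* was at 285, 291 and 258 against 21, 15.8 and 38.6 and higher in EEs (log2 fold change 3.51 ± 0.34 (SE), adjusted p = 1.53e-04), while *Chs2*, the chitin synthase of the gut, was lower (-2.18). Without single libraries, the call of *Fim* (without EC1, EE2 or EE3) did not hold (adjusted p up to 0.0131). Overlap with exons of another gene makes the values of *sn* uncertain.

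The core genes of the smooth septate junction, the barrier of the midgut epithelium, were higher in EEs. *Ssk* was 2261, 1866 and 1877 in EEs and 114, 224 and 195 in the EC-labelled libraries (log2 fold change 3.54 ± 0.32 (SE), adjusted p = 1.10e-04). *mesh* was 172, 127 and 111 against 11.4, 10.7 and 20.1 (log2 fold change 3.22 ± 0.31 (SE), adjusted p = 1.59e-04) and *Tsp2A*, the third component, was 679, 605 and 448 against 53.6, 105 and 41.3 (log2 fold change 3.19 ± 0.38 (SE), adjusted p = 4.09e-04). The lowest EE library was 8.34, 5.51 and 4.27 times the highest EC-labelled one for these 3 genes. Over all 26 tested septate junction genes, 9 were higher (5 without EE2 and EE3) and 1 lower (0 without EC1, EE1, EE2 and EE3 and 5 without EC3). *bark* (1.85) and *nrv1* (1.17) were among the rises, and the adhesion molecule *Nrg* was 11.1, 9.66 and 10.7 against 101, 84.7 and 27.5 and lower (log2 fold change -2.45 ± 0.46 (SE), adjusted p = 0.00344). After removal of 1 library, the calls of *nrv1* (in each fit but those without EC1 and EC3) and *Nrg* (in each fit but that without EC3) were lost, with adjusted p up to 0.0299.

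Many cytosolic ribosomal protein genes were lower in EEs. None of 77 tested cytosolic ribosomal protein genes was called higher (0 unadjusted), 42 were lower, and 76 had a negative fold change, with a median of -1.41 (-0.94 without the scaling). *RpL28* was 467, 479 and 566 in EEs and 5216, 8373 and 3047 in the EC-labelled libraries (log2 fold change -3.34 ± 0.39 (SE), adjusted p = 3.68e-04) and *RpLP1* was 1025, 1065 and 1108 against 5603, 6684 and 6951 (log2 fold change -2.58 ± 0.25 (SE), adjusted p = 1.68e-04). The count fell to 26 without the scaling, to 19 with quantile normalization and to 14 without EE1, 15 without EE2 and 19 without EE3. The enteroblast marker genes, which were also higher in the EC-labelled libraries, summed to 87.4 to 149 in EEs and 592 to 873 there, and their part in these falls was not tested. Of 37 translation factors, 12 were lower (2 without EE2, 4 without EE1 and EE3 and 5 without EC1) and 1 higher. *pAbp*, the poly(A)-binding protein, was 331, 268 and 588 against 5995, 9897 and 1644 (log2 fold change -3.62 ± 0.64 (SE), adjusted p = 0.00272). *eEF1alpha2*, an elongation factor best known from neurons and muscle, was 38.7, 68.7 and 46.1 against 2.7, 1.35 and 1.24 and the single rise (log2 fold change 4.24 ± 0.31 (SE), adjusted p = 4.55e-05). Leaving out 1 library removed the call of *pAbp* (without EC1, EE1 or EE2), with adjusted p up to 0.0154. The reads of *RpL28* may include those of another gene with shared exonic bases.

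Some genes of the tricarboxylic acid cycle were lower in EEs and some of sugar pathways were higher. Of 16 tested genes of the tricarboxylic acid cycle, 6 were lower (2 without EE2 and EE3 and 3 without EE1) and none higher (2 unadjusted, 2 without EC2). The citrate synthase *kdn* was 7.69, 8.03 and 10.7 in EEs and 112, 260.4 and 111 in the EC-labelled libraries (log2 fold change -3.94 ± 0.37 (SE), adjusted p = 1.30e-04), and the next largest falls were those of *Pdha* (-1.56), of pyruvate dehydrogenase, and *Idh3g* (-1.50). Of 67 respiratory chain genes of the nucleus, 7 were lower (0 without EE1 and EE2, 1 without EC1 and EE3 and 11 without EC3) and none higher (0 unadjusted), a share of members near the 10.9% of all features, with a median of -0.67. Mitochondrial ribosomal protein genes gave 7 lower (0 without EE1 and EE2, 1 without EE3 and 3 without EC1) of 70, also near that share, and their median was -0.34 with and 0.10 without the scaling. Among 18 genes of glycolysis, gluconeogenesis and glycogen use, 5 were higher (2 without EE2 and 3 without EE1 and EE3). *G6P*, glucose-6-phosphatase, was 11.8, 12.3 and 11.6 against 0.244, 0.129 and 0.231 (log2 fold change 3.42 ± 0.17 (SE), adjusted p = 2.39e-05), *Pepck2* was 42.6, 25.7 and 41.1 against 2.68, 1.78 and 2.14 (log2 fold change 3.52 ± 0.27 (SE), adjusted p = 5.00e-05) and *fbp*, fructose-1,6-bisphosphatase, also rose (1.57). These 3 enzymes act in glucose production. *Pfk* (1.32) and *Glyp* (1.43), of sugar and glycogen breakdown, rose too, and *Tpi* fell (-1.21). The calls of *Idh3g* (without EC1, EE2 or EE3), *fbp* (in each fit but that without EC3), *Pfk* (without EE1, EE2 or EE3), *Glyp* (without EC1 or EE2) and *Tpi* (in each fit but that without EC1) were lost in fits with 1 library fewer (adjusted p up to 0.0404). *Idh3g* and *G6P* share exonic bases with other genes, so their values are uncertain.

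**Figure D5:**
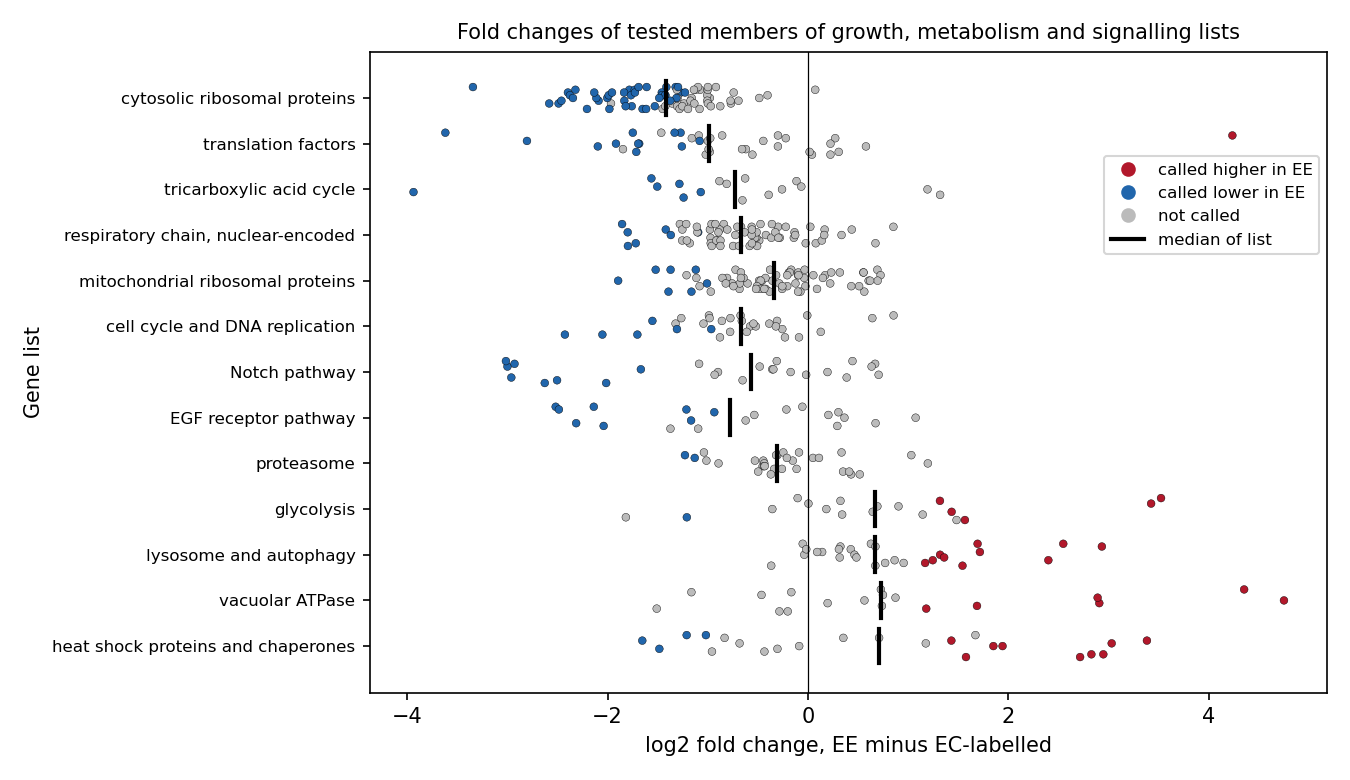
Log2 fold changes (EE minus EC-labelled) of the tested members of 13 gene lists, with 1 point per gene (red, called higher; blue, called lower; grey, not called) and a bar at the median of each list. The median is lowest for cytosolic ribosomal proteins, at -1.41, and *eEF1alpha2* and *kdn* stand furthest from the rest of their lists.

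Some lysosome and proton pump genes were higher in EEs. Of 28 tested lysosome and autophagy genes, 10 were higher (5 without EE1 and EE2 and 6 without EE3) and none lower (0 unadjusted). *Lamp1*, of the lysosomal membrane, was 678, 722 and 613 in EEs and 200.1, 202 and 218 in the EC-labelled libraries (log2 fold change 1.69 ± 0.23 (SE), adjusted p = 8.12e-04), and the sorting receptor *Lerp* (2.93), the autophagy receptor *ref(2)P* (2.55) and the saposin *Sap-r* (2.40) rose with it. The proton pump V-ATPase gave 6 higher and none lower (2 unadjusted, 1 without EC3) of 18, with *VhaM9.7-a* (4.75) and *Vha68-1* (4.35) far ahead of *VhaPPA1-1* (1.18). *Rab2* (1.84) and *GM130* (1.50), of the Golgi, were among 4 rises (1 without EE2 and 2 without EE3) in 34 genes of COPI, COPII and the Golgi. In the endoplasmic reticulum 5 of 36 rose, including the oxidase *Ero1L* (2.58). These last groups had shares below the 18.6% of all features. In fits that left out 1 library, *VhaPPA1-1* (in each fit but that without EC3) and *GM130* (without EE2 or EE3) lost their calls (adjusted p up to 0.0467). Exonic bases of *Lerp*, *ref(2)P* and *Sap-r* are shared with other genes.

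Chaperone genes were called in both directions. The heat-inducible genes *Hsp70Bc*, *Hsp23* and *Hsp68* were higher in EEs, with *Hsp70Bc* at 37.2, 72.2 and 65 in EEs and 5.33, 6.53 and 2.41 in the EC-labelled libraries (log2 fold change 3.38 ± 0.38 (SE), adjusted p = 3.16e-04) and *Hsp23* at 1103, 1997 and 2129 against 156, 491 and 110.1 (log2 fold change 3.03 ± 0.56 (SE), adjusted p = 0.00316). The constitutive chaperone *Hsc70-4* was lower, at 518, 469 and 562 against 1493, 1036 and 1099 (log2 fold change -1.21 ± 0.27 (SE), adjusted p = 0.00709), and the chaperonin subunits *CCT3* (-1.65), *CCT6* (-1.48) and *CCT1* (-1.02) fell. In all, 9 of 23 rose (5 without EE2) and 4 fell (0 without EC1, EE1, EE2 and EE3). The proteasome, with 2 (0 without EC1, EE1, EE2 and EE3 and 4 without EC3) of 31 lower and none higher (2 unadjusted, 2 without EC3), was below the background, and its median was -0.30 with and 0.17 without the scaling. The calls lost with 1 library left out were those of *Hsp23* (without EC1, EE2 or EE3), *Hsc70-4* and *CCT3* (in each fit but those without EC2 and EC3) and *CCT6* and *CCT1* (in each fit but that without EC3), with adjusted p up to 0.0578.

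Genes of the Notch and EGF receptor pathways were called lower in EEs. Of 24 tested Notch pathway genes, 8 were lower and none higher (3 unadjusted). The receptor *N* itself was 5.03, 2.12 and 3.56 in EEs and 56.3, 29 and 21 in the EC-labelled libraries (log2 fold change -2.93 ± 0.40 (SE), adjusted p = 7.95e-04), and its protease *kuz* was 4.43, 2.78 and 5.17 against 49.2, 79.9 and 15.5 (log2 fold change -3.01 ± 0.54 (SE), adjusted p = 0.00286). The targets *E(spl)malpha-BFM* (-2.96) and *E(spl)mbeta-HLH* (-2.50) fell as well. Of 20 EGF receptor pathway genes, 8 were lower (2 without EC1, EE1 and EE2 and 3 without EE3) and none higher (2 unadjusted, 1 without EC3). They spanned the ligand *vn* (-2.49), the protease *rho* that releases ligands (-2.31), the receptor *Egfr* (-1.21) and the inhibitor *sty* (-2.52). *rho* was 4.72, 3.59 and 6.09 against 31.3, 34.3 and 19.1, with no overlap. The enteroblast marker genes, several of them Notch targets, moved in the same direction (87.4 to 149 in EEs and 592 to 873 in the EC-labelled libraries when summed), and their part in these falls was not tested. Without single libraries, the calls of *kuz* (without EC1 or EE2), *vn* (in each fit but that without EC3) and *sty* (in each fit but those without EC2 and EC3) did not hold (adjusted p up to 0.0263). Overlap with exons of another gene makes the values of *kuz* uncertain.

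Other pathways were mixed, where 18.6% of all features were higher and 10.9% lower. In JAK/STAT signalling the ligand *upd3* was 14.4, 6.16 and 4.33 in EEs and 46.5, 41.1 and 31.5 in the EC-labelled libraries (log2 fold change -2.26 ± 0.40 (SE), adjusted p = 0.00256), the single called member of 8. In the Wingless pathway, 2 (0 without EC1, EE1 and EE3 and 1 without EC2 and EE2) of 18 tested members were higher and 2 lower (0 without EC1, EE1 and EE2 and 5 without EC3). In the BMP pathway, 1 (0 without EC1, EC2, EE1, EE2 and EE3 and 2 without EC3) of 9 tested members were higher and 2 lower (0 without EE1, EE2 and EE3 and 1 without EC1 and EC2), and in the Hippo pathway 1 (0 without EC1, EE1, EE2 and EE3) of 10 tested members were higher and 3 lower (1 without EC2, EE1, EE2 and EE3). In insulin and TOR signalling the kinase *Akt* was 5.06, 3.27 and 5.92 against 38.6, 30.3 and 20.9 (log2 fold change -2.41 ± 0.30 (SE), adjusted p = 5.32e-04), while *Rheb*, the GTPase that activates TOR, was 67.4, 71 and 81.2 against 13.9, 18.2 and 15.4 (log2 fold change 2.14 ± 0.23 (SE), adjusted p = 2.32e-04). Both were free of overlap, in opposite directions. After removal of 1 library, the call of *upd3* (without EC1, EE2 or EE3) was lost, with adjusted p up to 0.0148.

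Some cell cycle genes were lower in EEs. Of 31 tested, 6 were lower (0 without EE2, 1 without EC1 and EE3 and 2 without EE1), none was higher (0 unadjusted, 1 without EC2) and the median was -0.67. *PCNA*, the replication clamp, was 24.1, 14.1 and 12.8 in EEs and 86.1, 37.5 and 52.7 in the EC-labelled libraries (log2 fold change -1.70 ± 0.37 (SE), adjusted p = 0.00687), *fzr*, which promotes endocycles, was 2.77, 3.21 and 3.96 against 31.4, 32.4 and 10.3 (log2 fold change -2.43 ± 0.42 (SE), adjusted p = 0.00242), and the mitotic genes *CycB3* (-1.31) and *Incenp* (-1.55) fell. Of 21 tested genes of adhesion to the basement membrane, 9 were lower (1 without EC1, EE1, EE2 and EE3 and 4 without EC2) and 3 higher. The list had no common direction, with 11 negative and 10 positive fold changes. Its median was -0.23 with and 0.16 without the scaling. Calls numbered 4 higher and 3 lower without the scaling, and 1 higher and 4 lower among features sharing no exonic base. The integrin subunits *mys*, at 53.1, 28.5 and 33.3 against 218, 186 and 79.6 (log2 fold change -1.97 ± 0.42 (SE), adjusted p = 0.00661), and *mew* (-2.29) and the laminin *LanB2* (-1.67) fell, while *Ndg*, nidogen (1.81), and *Mmp2*, a matrix metalloproteinase (2.01), rose. Leaving out 1 library removed the calls of *PCNA* (in each fit but those without EC2 and EE1), *fzr* (without EC1, EE1 or EE2), *CycB3* (in each fit but that without EC2), *Incenp* (without EE2 or EE3), *mys* (in each fit but that without EC3), *mew* (in each fit but those without EC3 and EE3) and *LanB2* (in each fit but those without EC2 and EC3), with adjusted p up to 0.0344. The reads of *mew*, *Ndg* and *Mmp2* may include those of other genes with shared exonic bases.

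By gene class, 7308 tested features were protein-coding genes. Of 2500 of these that carry only an annotation number, 531 were higher in EEs and 227 lower (83 without EE2, 109 without EE1, 110 without EE3 and 134 without EC1). Long non-coding RNAs gave 73 higher and 52 lower (25 without EE2, 30 without EE1 and EE3 and 34 without EC1) of 296. Over all features, the shares were 18.6% and 10.9%. *lncRNA:CR45432* was 22.9, 29.5 and 16 in EEs and 0.488, 0.826 and 1.07 in the EC-labelled libraries (log2 fold change 3.70 ± 0.27 (SE), adjusted p = 4.72e-05), and *lncRNA:noe* was 66.1, 59.7 and 84.4 against 1011, 1794 and 253 (log2 fold change -3.46 ± 0.64 (SE), adjusted p = 0.00331). Of 44 small nucleolar RNAs, 2 were higher (0 without EC1, EE1 and EE2 and 1 without EC3 and EE3) and 7 lower (3 without EE1, 4 without EC1 and EE2 and 11 without EC3). Of 41 pseudogenes, 11 were higher and 9 lower (3 without EE2 and 4 without EE1). The pseudogene falls included copies of ribosomal RNA, with *28SrRNA-Psi:CR45860* at 4.33, 2.92 and 18.8 against 74.5, 109 and 94.7 (log2 fold change -3.64 ± 0.56 (SE), adjusted p = 0.00138). The call of *lncRNA:noe* (in each fit but those without EC2 and EC3) was lost in fits with 1 library fewer (adjusted p up to 0.0185). *lncRNA:CR45432* shares exonic bases with another gene, so its values are uncertain.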

How the data were processed

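RNA sequencing of sorted midgut cells was deposited by the authors as 1 table of RPKM for 17490 features, and no counts were used. The submitters' processing notes name STAR, featureCounts 1.6.3, DESeq2 and BDGP6, and the read total behind RPKM and the strand of counting are not given in the sources used here. The relative depth came from the steps between low RPKM values. The step was chosen to give the most whole reads, and 98.3 to 98.6% of the low values used were whole (within 0.05). RPKM values were scaled by median of ratios, features were kept where 3 or more of the 6 libraries had a deposited RPKM of 1 or higher, and log2(scaled RPKM + 1) was tested with limma 3.58.1 in R 4.3.3 (empirical Bayes with trend, 2-sided, Benjamini-Hochberg over 7847 features). Calls needed an adjusted p under 0.01 and a log2 fold change of more than 0.5 in size, after the thresholds of the study. The script was tested on simulated data.

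Genes were grouped in 69 lists. Named genes were the fixed markers, the 10 largest rises and falls over the table and up to 4 called members of a list in each direction without overlap, with uncalled members as values. Other named genes were chosen after their values were seen. The members and lists were chosen with earlier results of these data known. Of the features, 274 had no annotation, and 5447 annotated ones shared exonic bases with another gene. Genes without a current identifier in the table, among them *esg* and *Dl*, were not analysed here.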

Additional observations from a re-analysis of the deposited data

How the results depend on the processing

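No gene called in the comparison of EEs with EC-labelled libraries changed sign under any of the 17 alternatives run, but counts moved. The alternative filters, the set without shared exons, the replicate block and the other thresholds leave each fold change as it was. Only the remaining alternatives could change a sign. With array weights, 3723 features were called and 1591 were lower in EEs. When features that overlap exons of other genes were left out, 4830 remained to be tested and 1457 were called, 900 higher and 557 lower, out of fewer features. Lower calls numbered 512 without the filter and 488 without the scaling, where higher calls numbered 2080, and the cause was not tested. With 1 library left out, 1236 to 3020 features were called, 948 to 1740 higher and 288 to 1280 lower, the fewest without EE2 and the most without EC3. Of the 292 genes followed through the alternatives, 9 (without EC3) to 101 (without EE2) lost their call when libraries were left out singly, 78 without the filter, 37 without the scaling and 9 with quantile normalization. The alternative pseudocount of 0.1 and the filter at an RPKM of 3.5 moved no total by more than 1.5 times.

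The deviations of same-numbered EE and EC-labelled libraries correlated at -0.070, -0.098 and -0.132, and those of the other pairs at -0.023 to 0.115. With 3 libraries in each group, deviations from the group mean are tied to each other. These values therefore cannot decide whether libraries shared a sort or batch. With the replicate number as a block, 1919 features were called, 1228 higher and 691 lower, of which 1840 were among the 2318. The pseudocount and the filter limit low genes, because fold changes of genes near 1 RPKM shrink with the pseudocount, and most chemosensory receptors were under the filter.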

Other observations

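Set beside the 5 wild type progenitor libraries of the series, with all 11 libraries scaled together, some genes that were lower in EEs were highest in the EC-labelled libraries. *kdn*, the citrate synthase, ran from 8.89 to 13.4 in progenitors, 121 to 287 in EC-labelled libraries and 8.29 to 11.8 in EEs. *pAbp*, the poly(A)-binding protein, ran from 352 to 752, 1795 to 10908 and 298 to 646 in the same order, and the ribosomal protein gene *RpL28* from 1018 to 1879, 3326 to 9229 and 503 to 621. For these 3 genes each EC-labelled library was above all progenitor and EE libraries, and for *RpL28* the progenitors also lay above the EEs.

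For other genes, EC-labelled and progenitor ranges overlapped above the EEs. *klu*, the repressor of enteroblasts, ran from 14.9 to 26.6 in progenitors, 17.5 to 44.3 in EC-labelled libraries and 3.17 to 4.77 in EEs, and *Sox21a* from 6.46 to 42, 12.1 to 19.5 and 0.47 to 0.778. Outside both descriptions, the adenylyl cyclase *Ac76E* was highest in progenitors, with 7.22 to 43.3 there, 3.44 to 6.82 in EC-labelled libraries and 1.59 to 1.98 in EEs, as was *Ugt302C1*, with 93.6 to 142, 36.2 to 68.5 and 16.3 to 20.3. The trypsin *kappaTry* ran from 0.426 to 6.06 in progenitors and 25.4 to 107 in EC-labelled libraries, without overlap. The genes were chosen after their values were seen, and none of these differences from progenitors was tested.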
